A study of Drosophila melanogaster with 29 samples.

Results

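Males of the Cambridge stock of Drosophila melanogaster are described here against males of 4 other laboratory strains. The Cambridge males are the 3 arrays that carry this strain and sex in their labels, out of 29 arrays in the series. They were set against the mean of the 4 male group means of France, Antigua, Glasgow and Hikone, with 3 arrays in each group and 12 other male arrays in all. Every array was hybridised with biotinylated cRNA made from total RNA of whole flies kept at 25°C. The flies of all male arrays, and of all but 1 female array, were collected 0 to 6 h after eclosion. Cambridge and Glasgow are stocks of the Oregon-R strain that have been kept apart, and the labels also call Hikone an Oregon R stock, from Japan, which the study lists separately. France and Antigua are strains named for where they were collected. No transgene, mutation or treatment was used. Females of the same strains, 3 arrays of Cambridge and 11 of the others, were virgin and served as a second set of arrays of each strain. The label of 1 of the France female arrays gives an age of 3 to 5 days. Replicates were separate extractions from separate groups of flies. The arrays of a strain carry consecutive numbers, so an order of processing and a strain cannot be told apart.

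The age in most labels is that of newly eclosed adults, which are still changing from pupal to adult physiology. Their gut begins to make the enzymes that cut starch, sugars and protein, and the fat body holds reserves carried over from the larva. In males the accessory glands fill with seminal proteins, while the testis already transcribes the genes of sperm assembly. The fat body and haemocytes also make antimicrobial peptides, which are induced through the Toll and Imd pathways.

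Cambridge male replicate 1 stood apart from the other male arrays, with transcripts of the ovary and yolk. The values are GCRMA summaries on a log2 scale, on which 1 unit is a 2-fold difference. In Cambridge male replicate 1 the yolk protein gene Yp1 was 10.85, against 4.95 in replicate 2 and 2.18 in replicate 3, and the other 12 male arrays lay between 2.06 and 5.38. The transcript of oskar (osk), which is deposited in the egg, was 10.08, 4.86 and 3.32 in the same order, with 2.95 to 3.46 in the other male arrays. Replicate 1 was therefore the only male array at these levels, and replicate 2 also lay above the other strains for osk. The mean level of the 31 genes of the female germline list was 6.83, 4.98 and 4.67 in the 3 replicates and 4.36 to 4.70 in the other males. The mean of the 17 eggshell genes was 5.13, 3.12 and 2.94, against 2.76 to 3.18. Against both other Cambridge male arrays, replicate 1 was over 1 log2 unit higher at 353 probe sets, and all 353 were over 1 unit higher in females than in males of the other strains. It was over 1 unit lower than both at 104 probe sets, 70 of them over 1 unit higher in males of the other strains. The correlation of replicates 2 and 3 was 0.993, and those of replicate 1 with them were 0.980 and 0.975. The differences of single genes and the counts of the lists are therefore given with and without replicate 1 below, and where no second adjusted p is printed the call was the same without it.

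**Figure D1:**
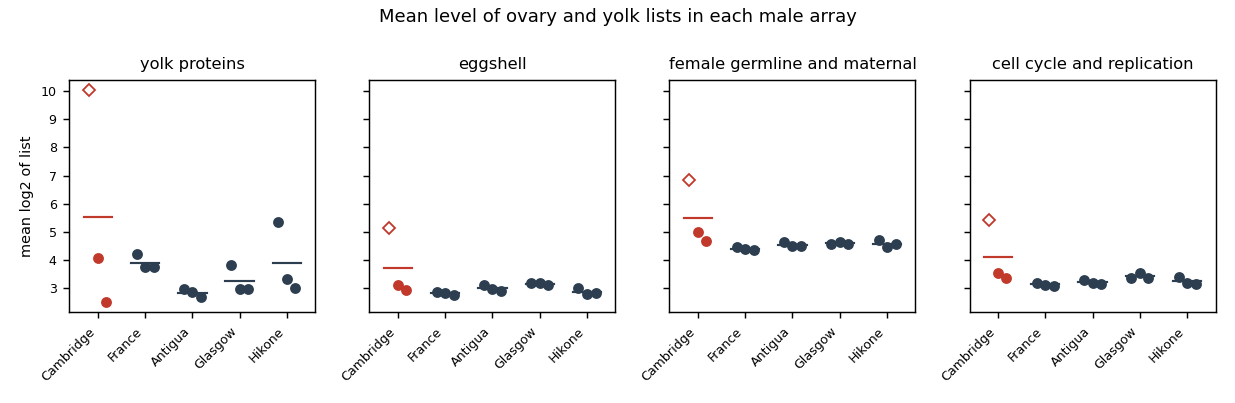
Mean log2 level (y axis) of the genes of 4 lists in each of the 15 male arrays, grouped by strain (x axis). Points are arrays, bars are group means, Cambridge arrays are red and the open diamond is Cambridge male replicate 1, which stood at 10.03 for yolk proteins and 6.83 for the female germline list.

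Cambridge males differed from the other strains at 477 of 13966 probe sets, which is 3.42% (limma, Bonferroni adjusted p below 0.01). Of these, 200 were higher in Cambridge males (1.43%) and 277 were lower (1.98%). When replicate 1 was left out, 202 were higher (1.45%) and 158 lower (1.13%). A total of 290 probe sets were called both ways, 151 higher and 139 lower, and the description below leads with them. Of the 138 lower calls that were lost without replicate 1, 52 were male-high and 2 female-high, where male-high and female-high mean over 1 unit higher in that sex of the other strains. The counts also moved without other Cambridge arrays. They were 121 higher and 149 lower without Cambridge male replicate 2, 129 higher without Cambridge male replicate 3, and 433 lower without Cambridge female replicate 3, which enters through the spread shared by all groups. The median difference over all probe sets was 0.10, so small positive differences were the rule. With each array centred on its median the split was 148 higher and 330 lower, so the higher share of the calls was 31.0% instead of 41.9%.

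Among the 151 higher probe sets, the 3 Cambridge male arrays lay above all 12 other male arrays in 119, and among the 139 lower ones they lay below all 12 in 100. Over all probe sets, 3.64% had Cambridge arrays above all others and 4.37% had them below. The difference was over 2-fold in 91 of the 151 and in 91 of the 139, and over all probe sets 0.788% were called higher and 1.21% called lower at over 2-fold. The Cambridge mean lay over 1 unit beyond every other male group mean in 27 of the higher and 28 of the lower probe sets, against 0.644% and 1.06% of all probe sets. The calls were made from the same arrays and differences. These counts of overlap, size and gap therefore describe the calls and give no separate support. In the other strains, 97 of the 151 higher probe sets were male-high, compared with 14.1% of all probe sets, and 2 were female-high, compared with 16.9%. Among the 139 lower probe sets, 32 were male-high and 3 female-high. The spread behind these calls was shared by males and females. With each sex fitted on its own the higher count was 80 instead of 200, and the male-high share was not worked out for that fit.

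Several genes of carbohydrate digestion were lower in Cambridge males. The list of sugar and starch digestion held 13 measured genes, of which 6 were lower and 0 higher, beside 1.98% lower over all probe sets, and 3 remained lower without replicate 1. Its median difference was -2.15 with all arrays and -2.09 without replicate 1, beside 0.10 and 0.08 over all probe sets. The mean level of the list was 5.46, 5.83 and 7.09 in the 3 Cambridge male arrays, and the other male arrays spanned 8.07 to 8.97 with a median of 8.45. All 3 Cambridge arrays thus lay below every other male array, and replicate 3 was the nearest to them. In RNA of whole flies, fewer gut cells and less RNA per cell cannot be told apart.

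The maltases, alpha-glucosidases that split maltose and sucrose, made up these calls. Mal-A4 was 2.19, 2.18 and 3.39 in Cambridge males, and the other male arrays ranged from 5.87 to 8.58 with a median of 7.46. The difference was -4.81 (SE 0.32, adjusted p = 2.3e-08), or -4.62 without replicate 1 (adjusted p = 2.04e-06). No Cambridge array reached the other strains. Its neighbour Mal-A3 was 1.82, 2.70 and 4.70, against 6.23 to 8.16 with a median of 7.46, a difference of -4.19 (SE 0.43, adjusted p = 4.58e-05). Without replicate 1 it was -3.57 (adjusted p = 0.00177), and with each sex fitted on its own the adjusted p was 0.0188. Mal-B2 was 6.26, 6.24 and 6.54, below the 8.01 to 8.87 of the other arrays, and its difference of -2.13 (adjusted p = 3.1e-06) was -2.09 without replicate 1. Calls for Mal-A2, Mal-A7 and Mal-A8 were lost without replicate 1, with adjusted p of 0.0589, 0.0318 and 0.415. Mal-A7 was also lost without Cambridge male replicate 2 (adjusted p = 0.0669), and the call of Mal-A8 (adjusted p = 0.00781 with all arrays) was lost when most single arrays were left out. Mal-A1 was 8.09, 8.50 and 10.57 against 11.64 to 12.58, a difference of -2.97, or -2.49 without replicate 1, that did not pass the test (adjusted p = 1 both ways).

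Protein-digesting enzymes gave few calls, although their levels were below those of the other strains. Of 14 Jonah proteases, serine proteases of the gut, 1 was called lower with and without replicate 1, beside 1.98% and 1.13% of all probe sets, and the median difference was -1.16, or -0.92 without it. Their mean level was 7.30, 7.57 and 8.06 in Cambridge males and 8.20 to 9.80 in the others, so no array overlapped. Of 10 trypsins 0 were called, although the Cambridge arrays lay below all others for 5 of them and the median difference was -0.96 with and without replicate 1. Their mean level of 6.29, 6.69 and 7.22 stood against 7.52 to 8.27. The called member, Jon65Aii, was 4.88, 4.23 and 3.44, but males of Antigua were at 3.32 and the other 3 strains at 7.58 to 8.80. The difference of -2.77 (adjusted p = 0.00148) was thus shared with Antigua. It was -3.12 without replicate 1, and it did not pass without Cambridge male replicate 2 (adjusted p = 0.0301) or replicate 3 (adjusted p = 0.0887). Ser6 and CG1304, neighbouring genes of serine proteases, were lower in all 3 Cambridge arrays than in any other male array. Ser6 was 4.89, 4.55 and 4.79 against 5.99 to 8.12, and its difference was -2.48 (SE 0.19, adjusted p = 3.87e-07). CG1304 was 3.73, 4.54 and 3.91 against 6.27 to 8.30, with a difference of -3.25 (SE 0.22, adjusted p = 2.2e-08). Without replicate 1 the differences were -2.55 and -3.08.

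The lowest difference among the calls was that of Muc68D, a mucin gene. It was 4.64, 4.37 and 3.91 in Cambridge males and 9.67 to 10.75 in the other male arrays, whose median was 10.59. The difference was -6.06 (SE 0.24, adjusted p = 9.12e-13), and -6.23 without replicate 1 (adjusted p = 3.8e-11). The other 8 measured mucins were not called, so the low value belonged to 1 gene of the family. CG6283 was close behind, at 1.83, 2.33 and 2.07 against 6.59 to 9.69, with a difference of -6.03 (SE 0.32, adjusted p = 2.42e-10), or -5.91 without replicate 1. CG3699 was 3.67, 4.19 and 3.60 against 6.96 to 8.66, a difference of -3.99 (SE 0.23, adjusted p = 8.57e-10), or -3.91 without replicate 1. In each of these 3 genes the Cambridge arrays lay over 2 units below the lowest array of any other strain. CG9259 differed by -3.30 (adjusted p = 2.26e-08), or -3.16 without replicate 1, at 4.70, 5.11 and 5.12 against 7.11 to 8.99. CG8562 differed by -3.35 with all arrays and without replicate 1 (adjusted p = 0.00017 and 0.00485), at 4.71, 5.14 and 4.28 against 6.66 to 9.17, and its adjusted p was 0.0101 without Cambridge male replicate 3.

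**Figure D2:**
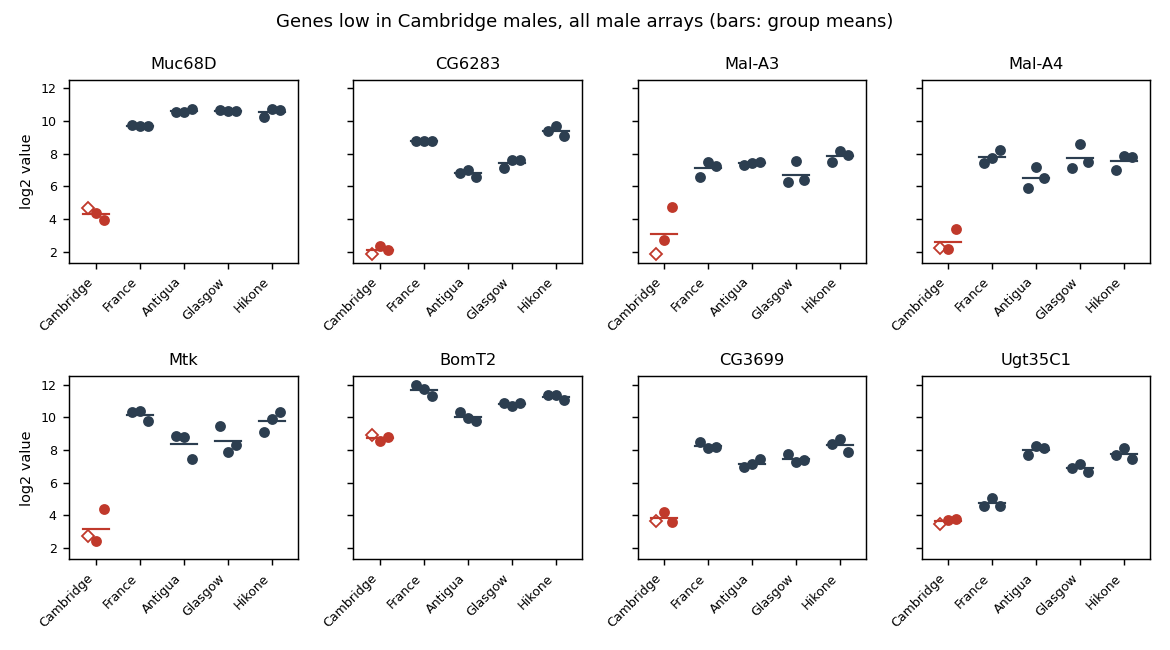
Log2 value (y axis) of 8 genes lower in Cambridge males, in each of the 15 male arrays by strain (x axis). Points are arrays, bars are group means, and the open diamond is Cambridge male replicate 1. In all 8 genes the 3 Cambridge arrays lie below the 12 others, as for Muc68D at 3.91 to 4.64 against 9.67 to 10.75.

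Among genes of the humoral immune response, Metchnikowin differed most in Cambridge males. Mtk, which encodes this antifungal and antibacterial peptide, was 2.73, 2.40 and 4.42 in the 3 arrays. The other 12 male arrays ranged from 7.44 to 10.42 with a median of 9.30, and group means ran from 8.37 in Antigua to 10.18 in France. The difference was -6.04 (SE 0.54, adjusted p = 4.87e-06), and -5.81 without replicate 1 (adjusted p = 0.00031). Mtk was the 1 of 8 antimicrobial peptide genes that passed the test, with and without replicate 1, beside 1.98% and 1.13% lower over all probe sets. DptB, a diptericin, was 3.80, 2.58 and 4.65 against 4.83 to 10.50 and did not pass (-4.06, adjusted p = 0.0988, or -4.13 and 1 without replicate 1). Drosomycin (Drs), at 9.32, 8.93 and 8.74, lay within the 8.05 to 11.36 of the other males (-1.02, or -1.19 without replicate 1, adjusted p = 1 both ways). The mean level of the list was 4.83, 4.59 and 5.01 against 5.42 to 7.70, so the arrays did not overlap, and its median difference was -0.80, or -0.87 without replicate 1. That mean includes Mtk, and 2 of the 8 genes had all Cambridge arrays below the others.

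Bomanins, short secreted peptides induced through Toll, had 2 genes called, both lower. Of 8 measured genes, 1 was still lower without replicate 1, beside 1.98% lower over all probe sets and 1.13% without replicate 1. All 8 differences were negative, with a median of -1.08, or -1.003 without replicate 1. BomT2 was 8.94, 8.56 and 8.80 against 9.77 to 12.01, a difference of -2.19 (adjusted p = 0.000154) that was -2.28 without replicate 1. The adjacent BomS5 was 8.92, 8.63 and 9.36, below every other male array, whose highest was 11.48, and its difference of -1.81 (adjusted p = 0.00333) did not pass without replicate 1 (adjusted p = 0.0791). Among 27 genes of immune recognition and signalling, the call was for Relish (Rel), the NF-kappaB factor of the Imd pathway. Rel was 7.82, 7.77 and 7.99 against 8.06 to 9.26, a difference of -0.77 (SE 0.08, adjusted p = 9.97e-05), or -0.74 without replicate 1. None of 13 haemocyte and basement membrane genes was called. Their mean level of 5.39, 5.62 and 5.67 overlapped the 5.48 to 6.82 of the other males, with the collagen gene Col4a1 at -0.82 (adjusted p = 0.0233, or -0.73 and 0.896 without replicate 1) and the haemocyte marker Hml at -0.41 (adjusted p = 1, or -0.14 and 1). The part of blood cell number in the peptide levels was not tested. The Bomanin, purine, mucin, acylglycerol and fatty acid lists were drawn up after the values had been seen and serve as descriptions.

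Of 11 measured enzymes of purine synthesis and one-carbon metabolism, 5 were lower in Cambridge males and 0 higher, and the same 5 remained without replicate 1. Over all probe sets 1.98% were lower, and 1.13% without replicate 1, and since this list was drawn up after the values had been seen its count supports nothing. None was called in Cambridge females. The median difference was -1.09 in males, or -1.08 without replicate 1, and 0.04 in females. Serine hydroxymethyltransferase (Shmt) was 5.85, 5.82 and 5.85 in Cambridge males against 6.41 to 8.24 in the others, with a difference of -1.48 with and without replicate 1 (adjusted p = 1.45e-10 and 1.24e-08). The folate enzyme pug was 5.35, 5.16 and 5.40 against 5.43 to 8.47, a difference of -1.51 (adjusted p = 1.31e-07), or -1.53 without replicate 1. Paics, which acts in the middle of purine ring assembly, was 9.19, 8.70 and 8.68 against 9.27 to 10.98, with a difference of -1.32 (adjusted p = 3.73e-06), or -1.49 without replicate 1. Prps, which makes the ribose precursor, was 8.21, 7.89 and 8.03 against 8.56 to 9.88, and its difference was -0.998 (adjusted p = 8.02e-07), or -1.08 without replicate 1. The fifth gene, Gart, differed by -1.32 (adjusted p = 0.000157), or -1.44 without replicate 1, with arrays that overlapped. Males of Antigua were the nearest group, with a list mean of 6.49 to 6.68 against 6.22 to 6.33 in Cambridge males. Among 9 genes of acylglycerol synthesis, the 3 called lower, with and without replicate 1, were the neighbours Agpat3 (-1.04) and Agpat4 (-1.24), which acylate lysophosphatidate, and mdy (-1.14), a diacylglycerol acyltransferase that completes triacylglycerol. In all 3 the Cambridge arrays lay below every other male array.

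Genes of detoxification differed in both directions. Of 83 cytochrome P450 genes, 3 were higher and 7 lower in Cambridge males, and 3 and 5 without replicate 1. Over all probe sets 1.43% were higher and 1.98% lower, and without replicate 1 these shares were 1.45% and 1.13%. Cyp12d1-d, a mitochondrial P450 known for its induction by insecticides and caffeine, was 7.13, 8.05 and 8.22 in Cambridge males. The other male arrays ranged from 2.96 to 5.47 with a median of 3.33, and the nearest group, Hikone, averaged 5.18. The difference was 4.07 (SE 0.16, adjusted p = 8.48e-13), or 4.41 without replicate 1. A near-identical gene lies beside Cyp12d1-d in the genome, so the value may belong to either copy. Cyp4p3 was 7.36, 7.62 and 7.82 against 4.56 to 6.30, a difference of 2.03 (adjusted p = 3.07e-06), or 2.15 without replicate 1. Cyp312a1 was 9.56, 9.66 and 9.79 against 8.42 to 9.27, a difference of 0.87 (adjusted p = 2.1e-05), or 0.92 without replicate 1.

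Among the lower P450 genes, Cyp28d1 was 6.20, 6.65 and 6.18 in Cambridge males and 6.50 to 10.18 in the others, a difference of -2.31 (adjusted p = 1.8e-05), or -2.24 without replicate 1, and the arrays overlapped with Glasgow, whose mean was 6.98. Cyp4e1 was 3.85 in each Cambridge array against 4.78 to 6.65, with a difference of -1.80 with and without replicate 1 (adjusted p = 3.14e-06 and 0.000134). Its neighbour Cyp4e2 differed by -0.84 (adjusted p = 1.94e-05), or -0.83 without replicate 1. Cyp6g1, a P450 known for its part in DDT resistance, was 9.05, 9.45 and 9.40 against 10.42 to 12.46, below every other array. Its difference of -1.86 (adjusted p = 0.00173) was lost when any 1 Cambridge male array was left out, with an adjusted p of 0.0759 without replicate 1, 0.0206 without replicate 2 and 0.0266 without replicate 3. Of 34 glutathione S-transferases 2 were lower with and without replicate 1, beside the 1.98% and 1.13% of all probe sets. GstE8 differed by -1.56 (adjusted p = 7.54e-06), or -1.65 without replicate 1, and GstZ1 by -1.16 (adjusted p = 0.00267), or -1.43. GstE8 was 4.01, 3.69 and 3.80 against 5.04 to 5.93, without overlap, whereas the call of GstZ1 was lost without Cambridge male replicate 2 (adjusted p = 0.133) or replicate 3 (adjusted p = 0.155). Of 33 UDP-glycosyltransferases 2 were lower, also with and without replicate 1. Ugt35C1 was 3.46, 3.74 and 3.80 against 4.56 to 8.26, a difference of -3.19 (SE 0.21, adjusted p = 1.1e-08), or -3.08 without replicate 1, with France the nearest at a mean of 4.74. Ugt35A1 was 3.94, 3.93 and 3.87 against 4.21 to 5.64, a difference of -1.09 (adjusted p = 0.000198), or -1.10 without replicate 1, and its call was lost with each sex fitted on its own (adjusted p = 0.0419).

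Some of the genes highest in Cambridge males were low in all other strains, and others had another strain near the Cambridge level. side-VII, which encodes a cell surface protein of the immunoglobulin superfamily, was low in all others. It was 6.10, 6.51 and 6.16 in Cambridge males and 3.16 to 3.94 in all other males, with a difference of 2.84 (SE 0.10, adjusted p = 1.18e-13) and 2.92 without replicate 1. PpN58A, a protein phosphatase subunit gene, was 4.34 in replicate 1 and 5.87 and 6.10 in the others, against 2.34 to 3.84. Its difference of 2.33 (adjusted p = 1.21e-05) was 2.88 without replicate 1 (adjusted p = 3.76e-11), and its SD of 0.96 (n = 3) came from replicate 1. With each sex fitted on its own its adjusted p was 0.0616. CG5267 was 6.52, 6.69 and 6.72 against means of 3.35 in France to 5.05 in Hikone, a difference of 2.36 (adjusted p = 5.56e-12), or 2.42 without replicate 1.

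PH4alphaNE3, CG18641, CG11598 and lncRNA:CR32661 had at least 1 other strain closer to Cambridge. PH4alphaNE3, the alpha subunit of a prolyl 4-hydroxylase, had the largest positive difference among the calls, 4.40 (SE 0.08, adjusted p = 1.08e-19), or 4.37 without replicate 1. It was 10.67, 10.47 and 10.67 in Cambridge males, but 9.97 on average in Glasgow, 8.78 in France, 3.16 in Antigua and 2.92 in Hikone. The gap to Glasgow was thus small beside the gap to Antigua and Hikone, and a second probe set of the gene differed by 0.71 (adjusted p = 1). CG18641 was 5.21, 5.59 and 5.66 in Cambridge males and averaged 4.82 in Hikone, a gap of 0.66, while the other 3 strains averaged 2.39 to 3.15. Its difference was 2.21 (adjusted p = 5.3e-12), or 2.34 without replicate 1, while a dimmer probe set of the gene differed by 0.33 (adjusted p = 1). CG11598 was 10.77, 10.81 and 10.84 against means of 9.82 in Antigua, 9.57 in Glasgow and 9.73 in Hikone, while France was at 2.86. Its difference of 2.81 (adjusted p = 4.84e-21), or 2.83 without replicate 1, rested mostly on France. The noncoding lncRNA:CR32661 was 9.60, 9.62 and 9.63, with 7.90 to 8.80 in 3 strains and 2.79 in France, and differed by 2.61 (adjusted p = 3.61e-12), or 2.62 without replicate 1. CG32833, at 7.44, 7.95 and 8.02, overlapped with Glasgow at a mean of 7.79 and stood above the 3.74 to 5.01 of the other strains, and its difference was 2.68, or 2.86 without replicate 1. BG642163, CG9168 and CG15705 had differences of 2.19, 2.35 and 2.24 (2.32, 2.30 and 2.27 without replicate 1), with Cambridge arrays above all others and gaps of 0.98, 0.98 and 0.88 to the nearest strain mean.

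**Figure D3:**
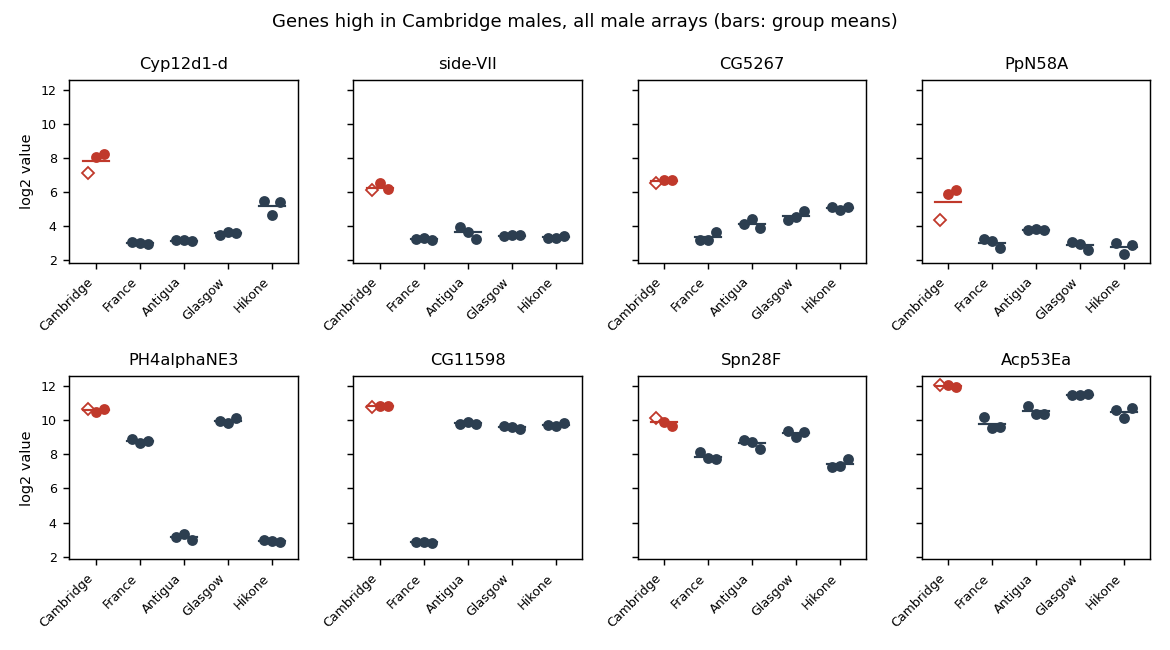
Log2 value (y axis) of 8 genes higher in Cambridge males, in each of the 15 male arrays by strain (x axis). Points are arrays, bars are group means, and the open diamond is Cambridge male replicate 1. side-VII at 6.10 to 6.51 is high in Cambridge and low in the others, whereas PH4alphaNE3 is near the Cambridge level in Glasgow, and CG11598 is low in France alone.

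Of 17 measured genes for seminal proteins of the accessory gland, 5 were higher in Cambridge males and 0 lower, with and without replicate 1, beside 1.43% higher over all probe sets and 1.45% without replicate 1. All 17 differences were positive with a median of 0.70, or 0.67 without replicate 1, where 9721 of the 13966 differences over all probe sets were positive. The mean level of the list was 11.27, 11.18 and 11.22 in Cambridge males, against 9.89 to 11.00 in the other male arrays, so that the groups did not overlap. Males of Glasgow were nearest, at 10.82 to 11.00. The Sex Peptide gene (SP), whose product changes the behaviour of mated females, was 11.74, 11.72 and 11.91 against 10.64 to 11.55, a difference of 0.65 (SE 0.04, adjusted p = 1.54e-08), or 0.68 without replicate 1. Acp53Ea was 12.06, 12.08 and 11.92 against 9.56 to 11.53, a difference of 1.45 (adjusted p = 2.27e-06), or 1.43 without replicate 1. Its neighbour Acp53C14b differed by 0.97 (adjusted p = 1.46e-05), or 0.96 without replicate 1. The call of Acp53C14b was lost with each sex fitted on its own (adjusted p = 0.0586).

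The other 2 calls of that list were serpins, inhibitors of serine proteases. All 3 serpins called among 26 were higher, with and without replicate 1, beside 1.43% and 1.45% higher over all probe sets. Spn28F was 10.13, 9.87 and 9.63 against 7.24 to 9.36, with a difference of 1.59 (adjusted p = 6.48e-08), or 1.46 without replicate 1. Spn28B was 8.56, 8.73 and 8.26 against 6.22 to 7.88, a difference of 1.42 (adjusted p = 4.02e-09), or 1.40 without replicate 1. Spn38F differed by 0.86 (adjusted p = 2.31e-05), or 0.79 without replicate 1, with an array of Glasgow at the level of the lowest Cambridge array, 12.04. Its call was lost with each sex fitted on its own (adjusted p = 0.0168). The 4 genes of the ejaculatory duct and bulb were not called, and their mean level of 11.77 to 11.93 overlapped the 11.22 to 11.97 of the other males.

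Of 33 genes of the testis and sperm, 30 had a positive difference, where 9721 of the 13966 differences over all probe sets were positive. The median of the list was 0.41, or 0.45 without replicate 1. With all arrays 1 gene was called higher, beside 1.43% of all probe sets. That gene, mia, was 4.97, 4.63 and 5.27 against 3.49 to 4.62 with a difference of 0.98 (adjusted p = 0.0073), and the call did not hold without replicate 1 (adjusted p = 0.143). The call was also lost without Cambridge male replicate 3 (adjusted p = 0.409), with arrays centred on the median (adjusted p = 0.0258) and with each sex fitted on its own. A second probe set of mia differed by 0.16 and was not called. Without replicate 1, Mst98Cb was called instead, at 0.78 (adjusted p = 0.0033) against 0.64 with all arrays (adjusted p = 0.0246). The mean level of the list was 8.48, 8.67 and 8.63 against 7.87 to 8.44. Replicate 1 lay just above the highest other array, and over all probe sets its median difference from the other males was 0.12. Replicate 1, the array with ovary transcripts, had the lowest of the 3 Cambridge levels, and the part of that array in the list was not tested beyond leaving it out. Other genes expressed in males were called singly. ND-51L2, a variant subunit of complex I, differed by 1.64 (adjusted p = 0.000608), at 5.82, 6.57 and 6.35 against 3.50 to 5.70, or by 1.86 without replicate 1, but was lost without Cambridge male replicate 2 (adjusted p = 0.0361) or replicate 3 (adjusted p = 0.0235). COX6AL2, a variant of a cytochrome oxidase subunit, went the other way at -1.03 (adjusted p = 0.000255) and was lost without replicate 1 (adjusted p = 0.0155) or replicate 3 (adjusted p = 0.0158).

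**Figure D4:**
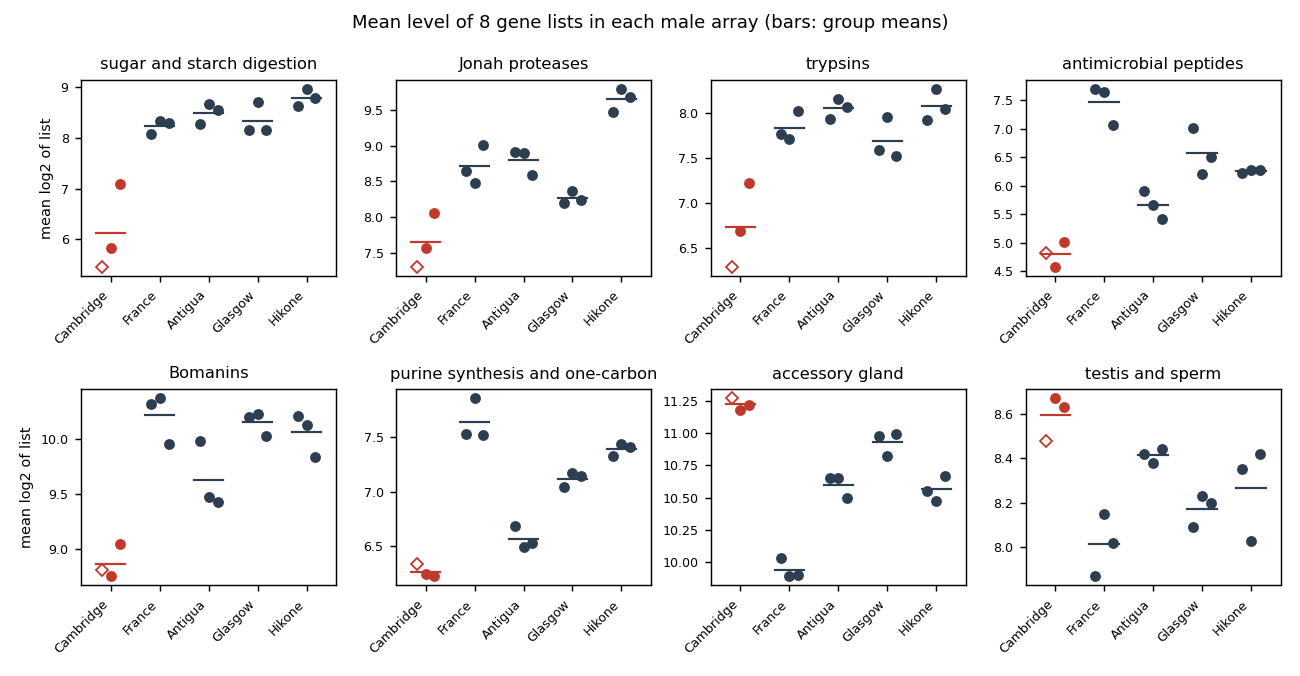
Mean log2 level (y axis, a scale of its own in each panel) of 8 gene lists in each of the 15 male arrays by strain (x axis). Points are arrays, bars are group means, and the open diamond is Cambridge male replicate 1. Cambridge arrays lie below all others for the digestion, protease, peptide, Bomanin and purine lists (sugar and starch digestion at 5.46 to 7.09 against 8.07 to 8.97) and above them for the accessory gland list. For the testis list they lie narrowly above, at 8.48 to 8.67 against 7.87 to 8.44. The Bomanin and purine lists were drawn up after the values had been seen.

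Other gene groups gave few calls in Cambridge males. Of the 44 lists, 21 had no member called with all arrays, among them cytoplasmic ribosome (37 genes, median -0.08, or -0.09 without replicate 1), chemoreceptors (123 genes, 0.14 or 0.12) and cuticle proteins (92 genes, 0.10 or 0.08). The 20 muscle contraction genes, also with no call, had a median of -0.28 that was -0.13 without replicate 1. Of 64 respiratory chain genes, 1 was higher and 1 lower, or 2 and 0 without replicate 1, and the median was -0.24, or -0.15 without replicate 1. The shares over all probe sets were 1.43% higher and 1.98% lower, or 1.45% and 1.13% without replicate 1. The mitochondrial ribosomal protein gene mRpS31 was 5.60, 4.76 and 5.45 against 6.10 to 7.09, a difference of -1.58 (SE 0.13, adjusted p = 5.92e-07), or -1.74 without replicate 1. It was the 1 call among 64 such genes, beside 1.98% lower over all probe sets. Clk, which drives the circadian clock, was 5.13, 5.22 and 6.05 against 6.04 to 7.78, a difference of -1.21 (adjusted p = 0.000292) that was lost without replicate 1 (adjusted p = 0.0161) or replicate 2 (adjusted p = 0.0183). The photoreceptor channel gene trpl was 9.66, 9.75 and 9.92 against 7.27 to 9.23, a difference of 1.42 (adjusted p = 0.00187) that was lost when any 1 Cambridge male array was left out (adjusted p = 0.0211, 0.0365 and 0.075 without replicates 1, 2 and 3). The larval serum and fat body genes Lsp2, Fbp1 and Fbp2 were not called, with differences of -0.69, -0.06 and 1.24 (-0.29, 0.31 and 2.04 without replicate 1), and their mean level of 4.57, 6.89 and 5.39 lay within the 3.81 to 9.65 of the other males. The neuronal list, with 8 genes and no call, had a mean level of 4.02 to 4.11 against 3.82 to 4.37.

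Whether the Cambridge differences were shared with females was asked with the 14 female arrays, which share no array with the male comparison. In females, 41 probe sets were higher in Cambridge (0.294%) and 60 lower (0.43%). Of all calls in males, 30 were also called in the same direction in females, or 25 without Cambridge male replicate 1. Among the probe sets called with and without replicate 1, 5 of the 151 higher and 19 of the 139 lower ones were called in the same direction in females. The median female difference was 0.14 for the 151 and -0.25 for the 139, beside 0.08 over all probe sets. The median male differences were 1.11 and -1.20. The female difference was positive in 96.7% of the higher probe sets, compared with 71.1% of all probe sets. It was negative in 82.0% of the lower probe sets, compared with 28.9% of all probe sets. A direct test of the male difference minus the female difference called 104 probe sets (0.745%), among them 47 of the 151 and 35 of the 139. Without Cambridge male replicate 1 it called 98, among them 50 of the 151 and 20 of the 139. Cambridge female replicate 3 stood apart from the 2 others: EbpII of the ejaculatory bulb was 7.26 in it and 2.47 and 2.35 in replicates 1 and 2. The testis gene betaTub85D was 6.21 in replicate 3, against 4.47 and 4.45. The mean level of the testis and sperm list was 4.36, against 3.72 and 3.77, and 3.46 to 3.77 in females of other strains. For the accessory gland list it was 3.95, against 3.58 and 3.53, and 3.16 to 3.62 in females of other strains. Without Cambridge female replicate 3, the probe sets called in the same direction in both sexes numbered 113.

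Shared genes were led by Muc68D and Cyp12d1-d. Muc68D was 3.77, 3.61 and 5.36 in Cambridge females and 7.78 to 10.40 in the group means of the other females, a difference of -5.28 (adjusted p = 1.82e-11). Cyp12d1-d was 7.28, 7.57 and 7.08 against 3.15 to 3.33, a difference of 4.06 (adjusted p = 1.15e-12), and the male and female differences were 0.01 apart. The small nucleolar RNA host gene Uhg1 was also high in both sexes, by 2.27 in males (adjusted p = 7.51e-07, or 2.44 without replicate 1) and by 2.75 in females (adjusted p = 2.77e-08), in both sexes mainly against France and Glasgow. In males it was 7.32, 7.79 and 7.84, just above the 7.30 of the highest other array, while France and Glasgow averaged 3.71 and 4.10. In females it was 10.04, 9.91 and 9.05, and Antigua at 9.73 to 9.84 and Hikone at 9.80 to 9.95 were at that level, so that the female difference rested on France at 3.85 to 3.97 and Glasgow at 4.08 to 4.23. Ser6, CG1304, CG9259 and CG8562 were lower in Cambridge females too, with differences of -1.68, -2.54, -2.59 and -3.03. CG6283 was 1.80, 1.79 and 3.21 in Cambridge females against group means of 3.05 to 7.41 (adjusted p = 0.000114). The digestive lists were lowest in Cambridge female replicates 1 and 2. Jonah proteases averaged 5.36 and 5.42 in replicates 1 and 2 and 9.70 in replicate 3, against 7.05 to 9.57 in the other females.

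Mtk and PH4alphaNE3 were called in males and not in females. Mtk was 7.27, 9.88 and 9.46 in Cambridge females, whose mean of 8.87 lay within the group means of 7.47 to 9.95 in the others (0.11, adjusted p = 1). The male and female differences were unequal with all arrays (-6.15, adjusted p = 0.00137), but that test did not pass without Cambridge male replicate 1 (-5.92, adjusted p = 0.0149). PH4alphaNE3 was 3.15 to 3.19 in Cambridge females, at the level of the other females, and the test of the sexes gave 4.32 (adjusted p = 2.1e-16), or 4.28 without replicate 1. For GstE8 the female difference was 0.08 and the difference between the sexes -1.64 (adjusted p = 0.00124), or -1.73 without replicate 1 (adjusted p = 0.00301). The reverse was seen for CG8349. It was 7.82, 8.22 and 7.91 in Cambridge males, within the 7.64 to 8.49 of the other males, but 7.76, 8.06 and 8.02 in Cambridge females, where the other strains averaged 2.91 to 3.26. Females of Cambridge thus carried CG8349 at the male level. Obp99a, an odorant binding protein gene, was 9.21, 9.68 and 9.57 in Cambridge males, below every other male array without a call (-0.77, or -0.63 without replicate 1, adjusted p = 1 both ways), and higher in Cambridge females by 1.73 (adjusted p = 1.49e-05).

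**Figure D5:**
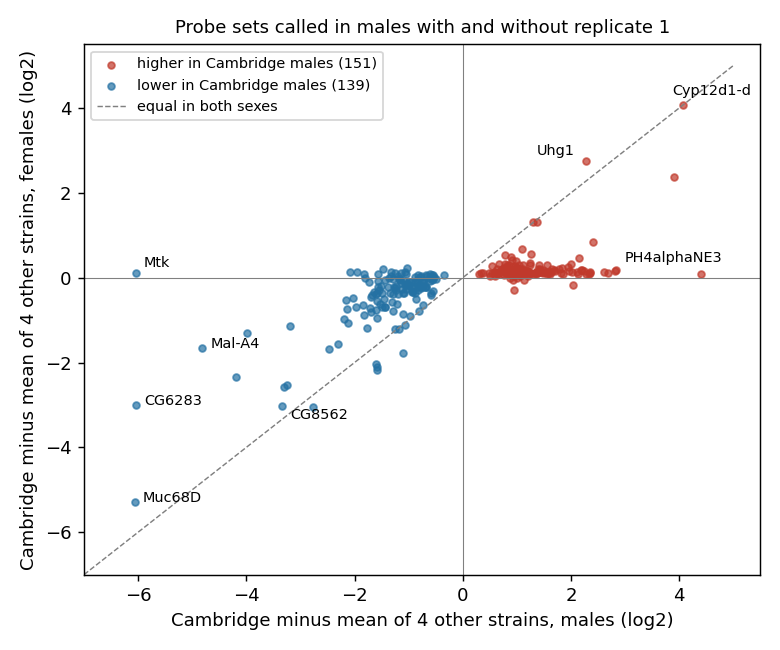
Difference of Cambridge from the mean of the 4 other strains in males (x axis, log2) and in females (y axis, log2) for the 290 probe sets called in males with and without replicate 1. The 151 higher (red) lie mostly near 0 in females, with Cyp12d1-d and Uhg1 among the exceptions, and many of the 139 lower (blue) lie between 0 and the dashed line of equal differences.

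No single strain was nearest to Cambridge males at all of these genes. For the 151 higher probe sets the nearest male group mean was Antigua in 61, Glasgow in 42, Hikone in 34 and France in 14. For the 139 lower ones it was Antigua in 56, Glasgow in 50, France in 17 and Hikone in 16. Glasgow, the other Oregon-R stock, was nearest in fewer of these probe sets than Antigua in both directions. The matching shares over all probe sets were not worked out, so these counts do not rank the strains by closeness to Cambridge. Some of the called genes lay beside each other. Of 10799 genes with a place in the RefSeq gene table, 411 were called, and 24 pairs of adjacent measured genes were called the same way, 10 higher and 14 lower. A matching share over all adjacent pairs was not worked out, so the count of pairs is a description. In 11 of the 24 pairs both genes were also called without replicate 1. They included Mal-A2, Mal-A3 and Mal-A4 on 2R, Agpat4 and Agpat3 on 3L, CG18547 and CG12224 on 3R (-1.97 and -2.15, or -1.88 and -2.20 without replicate 1) and CG9459 and CG9458 on 3R (-2.09 and -1.85). The call of CG9458 was lost without replicate 1 (-1.63, adjusted p = 0.0915), as was that of Mal-A2. Over all placed genes 1.63% were higher and 2.18% lower. On the X chromosome 14 of 1763 genes were higher (0.794%) and 40 lower (2.27%), and on 3L 46 of 2107 were higher (2.18%) and 39 lower (1.85%). The shares were 1.67% and 2.43% on 2L, 2.11% and 2.30% on 2R, and 1.36% and 2.10% on 3R, and of 57 genes on 4 a single one was called. Without replicate 1 the higher share ran from 0.794% on X to 2.16% on 2R, and the lower share from 1.10% on 2R to 1.47% on 3R on these 5 arms, beside 1.65% and 1.28% over all placed genes.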

How the data were processed

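Whole flies of 5 strains and both sexes were measured on Affymetrix Drosophila Genome 1 arrays. The deposited values are log2 GCRMA summaries of probe sets that the authors computed with a background adjusted for probe GC content and quantile normalization. No scan dates or probe-level files were used here. The 44 AFFX controls were left out, and 13966 of 14010 probe sets were tested. Probe sets were named through the platform annotation and a RefSeq gene table (12443 with 1 symbol, 327 with several, 1196 with none), and the brightest probe set stood for a gene. All 29 arrays entered 1 linear model with the 10 combinations of strain and sex as its terms (limma 3.58.1 in R 4.3.3, no replicate block), and p-values were adjusted by Bonferroni over all probe sets and called below 0.01. The number of arrays limits the precision. The procedure was tested on simulated data with known changes.

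The arrays, gene lists and named genes were chosen with earlier results of these data known. Named genes were the 12 highest and 12 lowest differences called with and without replicate 1 and without overlap of arrays, up to 4 called members of each of 39 lists, all members of lists of 5 or fewer genes, controls of sex and tissue, and the 10 largest differences between the sexes, 77 in all. Genes named beyond these were chosen after their values had been seen. Alternatives covered scaling, filtering, adjustment, variance models, the replicate block and each array left out.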

Additional observations from a re-analysis of the deposited data

Results flagged for a closer look

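For 22 of the named genes the difference of Cambridge from the other strains was unequal in males and females by the direct test in limma (Bonferroni adjusted p below 0.01). Without Cambridge male replicate 1, 19 of the 22 still passed, and Mtk (adjusted p = 0.0149), Acp53Ea (adjusted p = 0.0321) and yellow-f2 (adjusted p = 0.0522) did not. Values are the male difference minus the female difference on the log2 scale. Genes higher in Cambridge males and with a larger male than female difference were PH4alphaNE3 (4.32), CG11598 (2.66), side-VII (2.65), CG32833 (2.56), lncRNA:CR32661 (2.47), CG9168 (2.23), PpN58A (2.23), CG5267 (2.22), Cyp4p3 (2.21), CG15705 (2.08), CG18641 (2.03) and BG642163 (2.01). Seminal protein genes followed, with Spn28F at 1.46, Acp53Ea at 1.32 and SP at 0.55, and Spn28B of the serpin list was at 1.23.

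Genes lower in Cambridge males, with a smaller difference or none in females, were Mtk (-6.15), CG3699 (-2.68), GstE8 (-1.64) and yellow-f2 (-0.91), and for yellow-f2 a second probe set was not called. CG8349 (-5.03) and Obp99a (-2.51) had their called difference in Cambridge females. No cause was tested for any of these genes. Cambridge male replicate 1 carried ovary transcripts. Cambridge female replicate 3 carried ejaculatory bulb transcripts and had the highest female levels of the testis and accessory gland lists. Both arrays enter these values.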

How the results depend on the processing

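No named difference that was called in males changed sign under the alternatives run. Of the named genes without a call, 8 did under some alternative (TotE, Yp2, Yp3, EbpIII, Lsp2, Fbp1, Hsp68 and CG8349), and without Cambridge male replicate 1 Yp2 went from 2.42 to -0.02, Yp3 from 0.28 to -1.59 and Fbp1 from -0.06 to 0.31. The lower calls outnumbered the higher ones with all arrays, but not without Cambridge male replicate 1 (202 higher, 158 lower) or under Benjamini-Hochberg adjustment. With all arrays, 200 probe sets were higher, 277 lower, 30 called in the same direction in females and 104 unequal between the sexes. Array weights raised these counts to 456, 495, 141 and 249, and Benjamini-Hochberg adjustment to 2509, 1372, 223 and 527. With each sex fitted on its own, 80 were higher and 15 shared with females, and 16 named genes lost their call. At a Bonferroni threshold of 0.05, 49 were shared. Median centring, a repeated quantile normalization (245 higher, 253 lower, a higher share of 49.2%), a filter on low values and a variance trend kept the 4 counts within 1.5 times.

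With single arrays left out, the higher count ranged from 121 (without Cambridge male replicate 2) to 208, the lower count from 149 (without Cambridge male replicate 2) to 433 (without Cambridge female replicate 3), the count shared with females from 23 to 113 (without Cambridge female replicate 3), and the count unequal between the sexes from 64 (without Cambridge female replicate 2) to 110. Without Cambridge male replicate 2 the last was 69. Leaving out Cambridge male replicate 1 and Cambridge female replicate 3 together, chosen after seeing the data, gave 187 higher, 235 lower, 100 unequal and 73 shared with females. The cause of these shifts was not tested. Of 53 named genes called in males, 21 lost their call under some alternative, 15 of them when a Cambridge male array was left out.

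Whether the replicate numbers pair the arrays was not settled. Correlations of deviations between arrays of the same number ran from -0.49 to 0.207, and between different numbers from -0.442 to 0.609. For Cambridge male replicate 1 the values with replicate 1 of the France, Antigua, Hikone and Glasgow males were 0.176, 0.173, 0.132 and -0.018. The replicate block gave 170 higher, 202 lower, 24 shared and 73 unequal.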

Other observations

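Of 19 measured genes of fatty acid breakdown in mitochondria, 7 were lower in Cambridge males and 0 higher, and 5 were lower without replicate 1, beside 1.98% and 1.13% lower over all probe sets. The median difference was -0.43, or -0.51 without replicate 1. The list was drawn up after some of its members had been seen among the calls, so the count is a description. Acadvl, an acyl-CoA dehydrogenase, was 7.21, 7.12 and 7.06 in Cambridge males against 7.55 to 8.58 in the other male arrays, a difference of -0.85 (limma adjusted p = 7.23e-07), or -0.89 without replicate 1. Echs1, an enoyl-CoA hydratase, was 7.93, 7.74 and 7.91 against 8.08 to 9.66, a difference of -0.96 (adjusted p = 9.47e-06), or -0.997 without replicate 1. The carnitine palmitoyltransferase gene whd was 8.91, 9.04 and 8.95 against 9.26 to 9.77, and differed by -0.54 (adjusted p = 1.12e-05), or -0.51 without replicate 1. The thiolases Acat1 and yip2 differed by -1.30 and -1.21, or -1.42 and -1.20 without replicate 1. In these 5 genes the Cambridge arrays lay below every other male array, and yip2 was also called in females, at -0.62 (adjusted p = 0.00087). The calls of colt and Had1 were lost without replicate 1 (adjusted p = 0.0159 and 0.0509).

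Pomp, whose product assists the assembly of the proteasome, was 9.72, 9.74 and 9.68 in Cambridge males against 7.88 to 8.80, and its difference was 1.31 in males (adjusted p = 7.22e-06, or 1.30 without replicate 1) and 1.31 in females (adjusted p = 8.21e-06). Of the 39 measured proteasome subunit genes, 1 was called higher in males, beside 1.43% higher over all probe sets. That gene, Rpn12R, differed by 0.63 (adjusted p = 0.00102) and was lost without Cambridge male replicate 2 (adjusted p = 0.0598) or replicate 3 (adjusted p = 0.0195). The globin gene glob1 was 8.47, 8.55 and 8.43 against 8.67 to 11.55, a difference of -1.71 (adjusted p = 4.97e-09), or -1.70 without replicate 1.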
